A study of Mus musculus with 27 samples.

Results

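The Ms4a genes encode tetraspan membrane proteins, and this account covers the 8 members named Ms4a4a, Ms4a4b, Ms4a4c, Ms4a6b, Ms4a6c, Ms4a6d, Ms4a7 and Ms4a8a. They were taken as the rows of the count table whose Ensembl identifiers carry these symbols. These are 8 of 41388 genes in the table, and all 8 were among the 12661 genes with enough counts to be tested. The libraries were made from macrophages sorted from the dura mater of B6 mice. All mice, controls included, lacked Rag1, which lymphocytes need to assemble antigen receptors, and all were 16 to 19 weeks old. Reconstituted mice were examined 6.5 weeks after they received T cells. Their T cells were Tbet ko (2 libraries, all female), IFNg ko (2, all female), IL6Ra ko/IL21R ko (7, of which 3 female and 4 male), IL-17AF ko (2, all female), IL22 ko (3, of which 2 female and 1 male) or total B6 T cells (5, of which 4 female and 1 male). The remaining 6 libraries (4 female, 2 male) came from mice at steady state without T cells. The labels do not say whether IL6Ra and IL21R were missing from the same T cells. In every knockout group the deletion was in the donor T cells and not in the macrophages, so the sequenced cells cannot show whether it worked.

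MS4A proteins cross the membrane several times, and some of them associate with other receptors and change their signalling. The best known are CD20 (Ms4a1) on B cells and the beta chain of the IgE receptor (Ms4a2) on mast cells, while most members described here are transcribed in monocytes and macrophages. In mice, Ms4a7 is used as a marker of macrophages at the borders of the brain, and Ms4a4c and Ms4a6c are high in classical monocytes. Ms4a4a and Ms4a8a have been described in alternatively activated macrophages, Ms4a6b and Ms4a6d in both monocytes and macrophages, and Ms4a4b in T cells. Ms4a7, Ms4a4a and Ms4a8a were therefore listed as the resident type, and Ms4a4c and Ms4a6c as the monocyte type.

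All 8 members lie in 1 cluster on mouse chromosome 19. From Ms4a8a to Ms4a6d they span 537 kb, at chr19:11067471-11604849 of GRCm38. Ms4a8a, Ms4a7 and Ms4a6d are annotated on the minus strand, and Ms4a4a, Ms4a4c, Ms4a4b, Ms4a6c and Ms4a6b on the plus strand. Levels are given as CPM, the read count relative to the scaled library total, and counts cover all annotated exons of a gene, untranslated regions included. The libraries did not keep the strand. Exons of Ms4a6c overlap those of BE692007, an antisense processed transcript, over 1088 bases, and 47.7% of the 75-base stretches of Ms4a6c transcripts are shared with BE692007. Counts of these 2 genes cannot be fully told apart, so the values of Ms4a6c are uncertain to that extent. Ms4a4b and Ms4a4c share 66 such stretches, 3.78% of those of Ms4a4c. Ms4a4a, Ms4a7 and Ms4a8a share none.

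The RefSeq promoters (GRCm38.p6, 250 bases before to 50 bases after each start) show which members have closely similar upstream sequence. They are printed for the 2 most similar pairs, 1 of which was called together with total T cells and 1 of which was not, and for Ms4a7, the main resident-type member. The table held 7 of the 8 members, all but Ms4a6d. The promoters of Ms4a4c (chr19:11407411-11407710) and Ms4a4b (chr19:11443308-11443607) aligned over 183 columns with 162 identical bases (88.5%), and those of Ms4a6c (chr19:11469118-11469417) and Ms4a6b (chr19:11518309-11518608) over 222 columns with 182 identical bases (82%). In these 4 sequences capitals mark the bases identical to the partner in the aligned stretch.
Ms4a4c: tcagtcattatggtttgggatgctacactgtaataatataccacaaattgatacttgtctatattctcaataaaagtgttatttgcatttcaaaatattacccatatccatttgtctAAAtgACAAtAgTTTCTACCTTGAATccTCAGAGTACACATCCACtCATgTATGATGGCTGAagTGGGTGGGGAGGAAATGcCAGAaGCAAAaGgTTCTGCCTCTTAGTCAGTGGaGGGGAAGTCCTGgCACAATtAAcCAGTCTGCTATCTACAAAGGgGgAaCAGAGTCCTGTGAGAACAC
Ms4a4b: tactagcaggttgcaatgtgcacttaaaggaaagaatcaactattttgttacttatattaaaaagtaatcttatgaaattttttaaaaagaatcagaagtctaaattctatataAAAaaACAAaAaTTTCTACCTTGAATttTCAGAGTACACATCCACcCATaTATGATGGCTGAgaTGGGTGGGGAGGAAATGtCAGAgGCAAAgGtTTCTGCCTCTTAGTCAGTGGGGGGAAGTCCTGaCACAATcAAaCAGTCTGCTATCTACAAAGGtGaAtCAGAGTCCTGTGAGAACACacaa
Ms4a6c: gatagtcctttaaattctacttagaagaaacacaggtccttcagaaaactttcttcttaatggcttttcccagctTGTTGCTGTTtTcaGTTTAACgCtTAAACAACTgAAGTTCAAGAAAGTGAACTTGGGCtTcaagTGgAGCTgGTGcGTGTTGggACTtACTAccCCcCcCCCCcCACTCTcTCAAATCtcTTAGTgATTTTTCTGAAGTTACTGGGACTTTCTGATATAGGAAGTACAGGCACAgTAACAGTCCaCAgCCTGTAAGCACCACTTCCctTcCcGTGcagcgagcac
Ms4a6b: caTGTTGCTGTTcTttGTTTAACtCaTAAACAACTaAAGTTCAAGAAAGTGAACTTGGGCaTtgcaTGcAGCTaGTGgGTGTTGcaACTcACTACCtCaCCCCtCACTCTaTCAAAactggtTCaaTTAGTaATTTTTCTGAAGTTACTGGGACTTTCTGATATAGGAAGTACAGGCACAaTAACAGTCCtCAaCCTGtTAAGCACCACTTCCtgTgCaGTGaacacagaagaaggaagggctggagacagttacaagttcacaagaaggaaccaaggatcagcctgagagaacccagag
The Ms4a7 promoter (chr19:11336097-11336396) lies on the minus strand, and its capitals mark the letters GAGGAA.
Ms4a7: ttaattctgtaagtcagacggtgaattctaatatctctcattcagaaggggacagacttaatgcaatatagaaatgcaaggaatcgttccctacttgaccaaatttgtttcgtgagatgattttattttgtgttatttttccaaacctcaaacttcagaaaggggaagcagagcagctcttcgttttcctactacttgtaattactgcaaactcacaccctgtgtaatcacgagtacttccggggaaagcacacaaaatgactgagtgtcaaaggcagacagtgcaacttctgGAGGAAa

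The 7 promoters were searched on both strands for the gamma-activated site TTCNNNGAA, the interferon-stimulated response element (GAAA, any 2 bases, GAAA) and GAGGAA, the core of sites bound by the myeloid factor PU.1. No 2 of these motifs overlapped in a member. Neither the gamma-activated site nor the interferon-stimulated response element was found in any of the 7, against 8.3% and 3.44% of all 32851 promoters in the table. GAGGAA was found in Ms4a4b, 64 bases before the start, in Ms4a4c, 61 bases before the start, and in Ms4a7, within the bases after the start. It occurs in 28.3% of all promoters. A missing match says only that these letters are absent from this window.

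**Figure D1:**
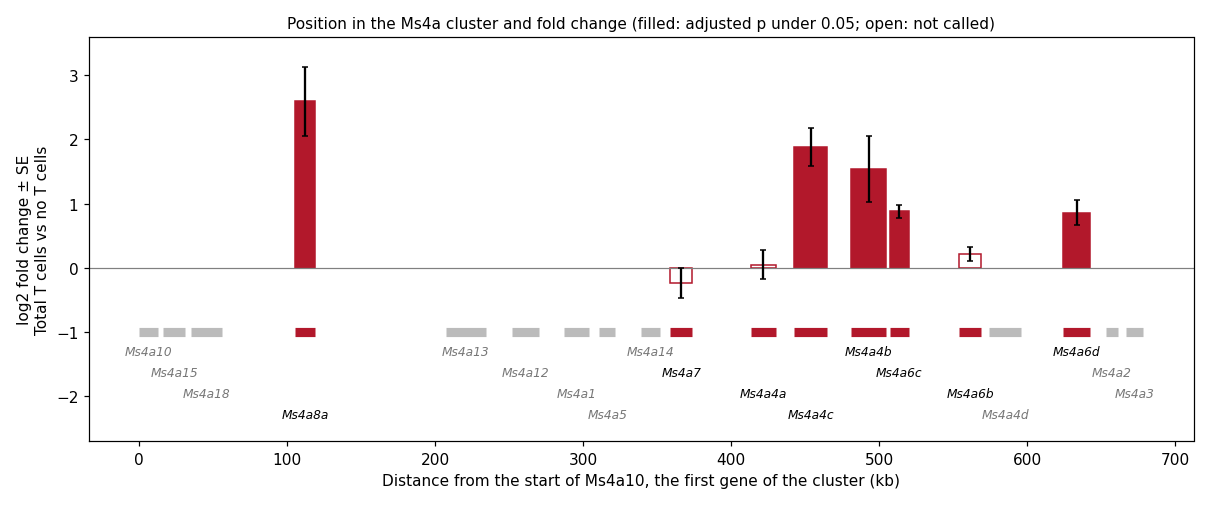
Position of the Ms4a genes along chromosome 19 (x axis, kb from the first gene of the cluster) and log2 fold change ± SE of the 8 members in total T cells against no T cells (y axis). Filled bars passed the test and open bars did not; the lower row marks the other Ms4a genes of the cluster in grey and members in red. Called and uncalled members lie side by side, with Ms4a4c at 1.88 next to Ms4a4a at 0.05.

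Libraries held from 6902602 to 19966749 counts, with 13225 to 17015 genes detected. The libraries were clustered by their log2 levels of 77 ribosomal protein genes and cut into 3 sets, a number that was preset. The sets are called A, B and C in order of the share of counts from these genes. The shares were 2.69 to 3.29%, 1.11 to 1.55% and 0.721 to 0.856%. What made these sets is not given in the labels. Set A held 3 total T-cell and 4 no T-cell libraries. Set B held the other 2 of each, all IL22 ko libraries and 6 of the 7 IL6Ra ko/IL21R ko libraries. Set C held all Tbet ko, IFNg ko and IL-17AF ko libraries and the seventh of the IL6Ra ko/IL21R ko libraries, M4. Libraries are named by sex and a running number, such as F1 or M4. The Tbet ko, IFNg ko and IL-17AF ko groups thus share no set with a control, so group and set cannot be told apart for them. In these sorted bulk samples, fewer cells of a type and less RNA per cell cannot be told apart either. The macrophage genes Adgre1, Csf1r, Cd68, Fcgr1, Mertk and Aif1 summed to between 5060 and 9521 CPM in all 27 libraries. Total T-cell libraries had 5060 to 7761 CPM, with F1 (5060 CPM) and M1 (6026 CPM) lowest. No T-cell libraries had 7292 to 8124 CPM, and knockout libraries 7768 to 9521 CPM. The part of this difference in the Ms4a levels was not tested.

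**Figure D2:**
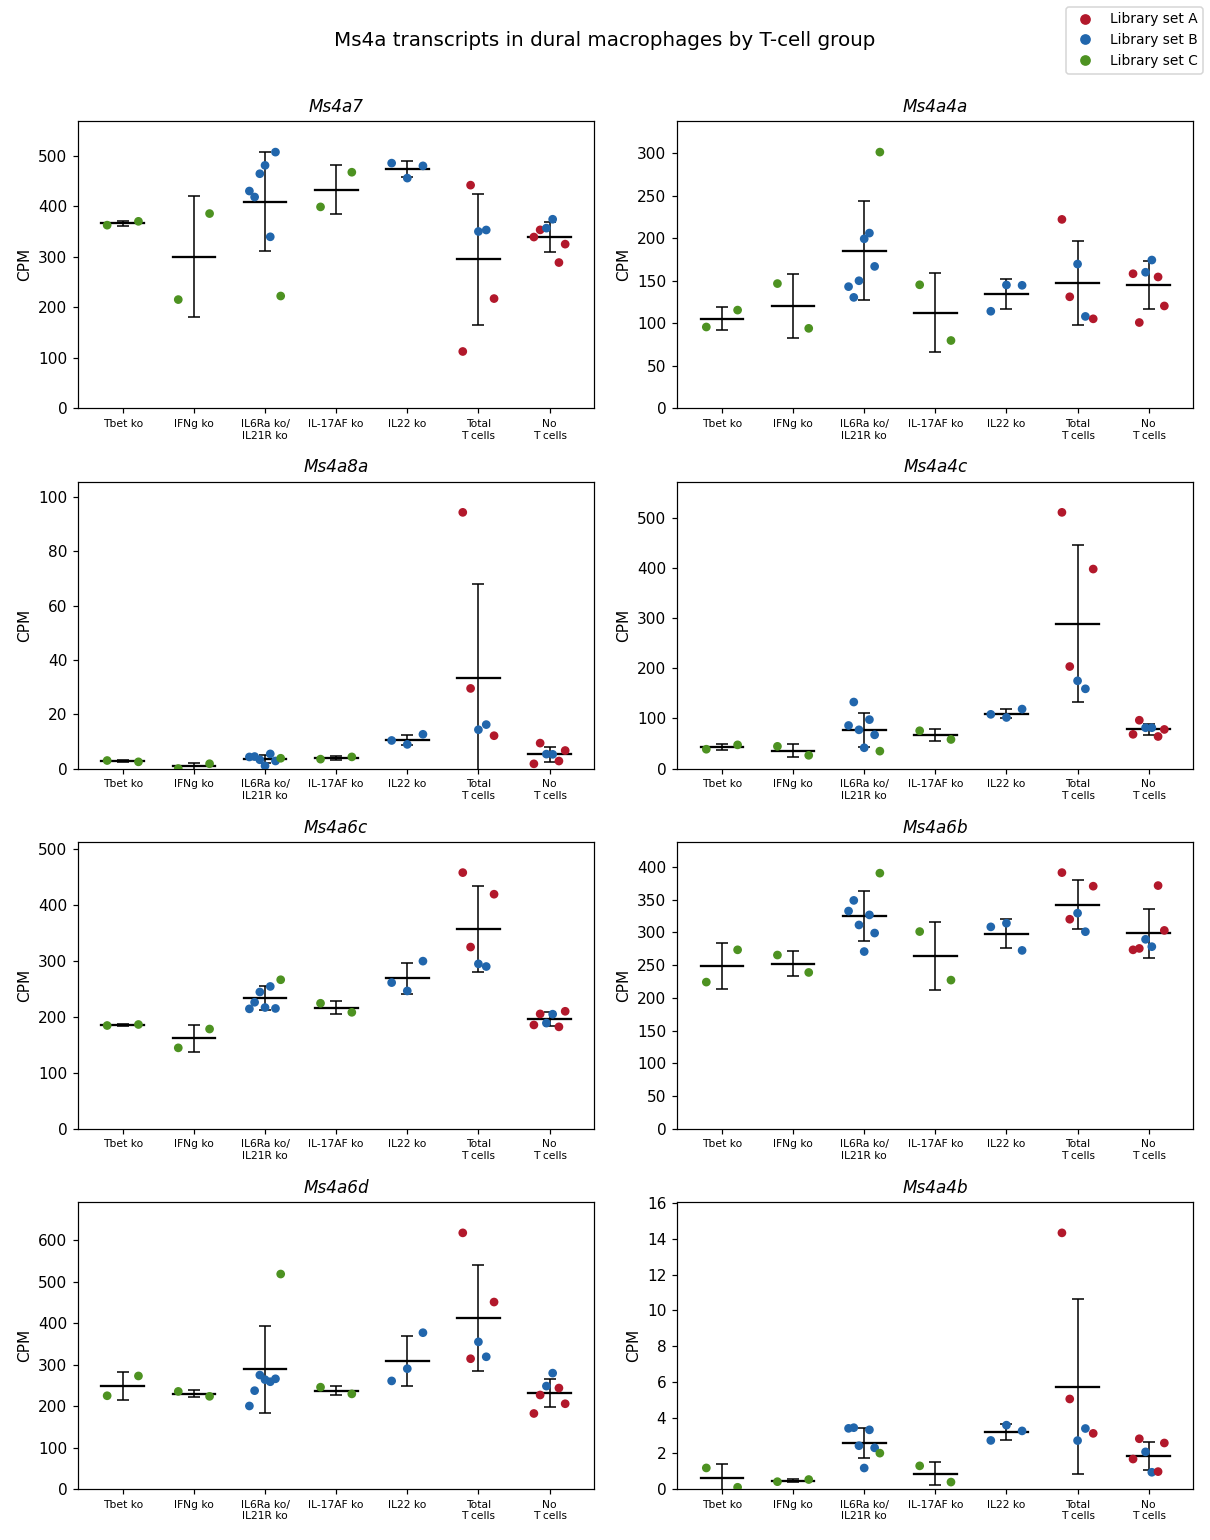
CPM of the 8 members (y axis, linear from 0) in each library by group, coloured by library set; black lines are group means and error bars ± 1 SD, cut at 0. Ms4a4c, Ms4a6c and Ms4a8a were highest in the mean of the total T-cell group and Ms4a7 lowest there, with total T-cell library F1 at 511 CPM Ms4a4c and 112 CPM Ms4a7.

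Total T cells against no T cells asked how Ms4a transcripts of dural macrophages differed once T cells were present. In total T-cell mice 5 of the 8 members were higher than in mice without T cells and none was lower: Ms4a4c, Ms4a6c, Ms4a6d, Ms4a8a and Ms4a4b. Ms4a7, Ms4a4a and Ms4a6b did not pass the test. Of all 12661 genes, 21% passed in either direction, 11.7% higher and 9.39% lower. The median log2 fold change was 0.87 over the members and -0.02 over all genes tested. Calls are at a Benjamini-Hochberg adjusted p (q) under 0.05 in edgeR's quasi-likelihood test, adjusted over all 12661 genes.

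Of the monocyte type, Ms4a4c is an interferon-inducible member. Its level was 511, 203, 175, 159 and 398 CPM in total T-cell libraries F1, F2, F3, F4 and M1, against a lowest, median and highest value of 63.9, 79.6 and 96.3 CPM in the no T-cell libraries. The groups did not overlap, and within the total T-cell group F1 and M1 stood above the other 3 libraries. The log2 fold change was 1.88 ± 0.30 (q = 0.00012). Ms4a6c, the other monocyte-type member, had 458, 325, 295, 290.2 and 419 CPM in total T-cell libraries F1, F2, F3, F4 and M1, against 182, 197 and 210.1 CPM (lowest, median, highest) without T cells. These groups did not overlap either, F1 and M1 were again highest, and the log2 fold change was 0.88 ± 0.11 (q = 2e-05). The overlapping antisense transcript BE692007 was also higher, by 0.50 ± 0.14 (q = 0.013).

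The resident type did not move as one. Ms4a7 had 112, 442, 350, 353 and 217 CPM in total T-cell libraries F1, F2, F3, F4 and M1, against 288, 346 and 374 CPM (lowest, median, highest) without T cells. F1 and M1, the libraries highest in Ms4a4c, were the lowest in Ms4a7, the other 3 libraries lay within or above the no T-cell range, and the groups overlapped (log2 fold change -0.24 ± 0.23, q = 0.52). Ms4a4a, a surface receptor of macrophages, had 222, 131, 170, 108 and 105 CPM in total T-cell libraries F1, F2, F3, F4 and M1, against 101, 156 and 174 CPM (lowest, median, highest) without T cells. The groups overlapped almost fully (0.05 ± 0.22, q = 0.91). Ms4a8a had 94.3, 29.5, 14.3, 16.2 and 12.1 CPM in total T-cell libraries F1, F2, F3, F4 and M1, against 1.74, 5.27 and 9.36 CPM (lowest, median, highest) without T cells. All 5 lay above every no T-cell library, F1 by far the highest (2.59 ± 0.54, q = 0.0014; 1.76 ± 0.48, q = 0.015 without F1). Ms4a8a thus went against its resident-type listing, and Ms4a7 and Ms4a4a did not differ beyond their spread.

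Of the members listed under both types, Ms4a6d had 617, 314, 355, 319 and 451 CPM in total T-cell libraries F1, F2, F3, F4 and M1, against 182, 235 and 279 CPM (lowest, median, highest) without T cells. The groups did not overlap (0.86 ± 0.19, q = 0.0022). Ms4a6b, whose promoter resembles that of Ms4a6c, had 391, 319.9, 329, 301 and 370.4 CPM in total T-cell libraries F1, F2, F3, F4 and M1, against 273, 284 and 371 CPM (lowest, median, highest) without T cells. The groups overlapped and the gene was not called (0.21 ± 0.11, q = 0.18). Ms4a4b, the lymphocyte member, was low, with 14.3, 5.04, 2.71, 3.39 and 3.11 CPM in total T-cell libraries F1, F2, F3, F4 and M1, against 0.939, 1.88 and 2.81 CPM (lowest, median, highest) without T cells. The groups touched, since F3 lay below the highest no T-cell library. Its log2 fold change was 1.54 ± 0.51 (q = 0.033), and 0.91 without F1 (q = 0.23); it was also not called without no T-cell library F1, F3, F4 or M1, with q between 0.054 and 0.073, nor without the filter on low counts (q = 0.079) or in females alone (q = 0.088).

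T-cell receptor and CD3 genes (Cd3d, Cd3e, Cd3g, Trac, Trbc1, Trbc2) summed to 138, 2, 12, 9 and 21 counts in total T-cell libraries F1, F2, F3, F4 and M1, against 0 to 8 counts in no T-cell libraries. Ms4a4b had 211, 67, 26, 40 and 58 counts in the same total T-cell libraries, against 7 to 49 counts in no T-cell libraries. Both were highest in F1, and the part of T-cell RNA in Ms4a4b was not tested. Of 14 monocyte-derived cell markers such as Ly6c2 and Ccr2, all 14 were higher in total T-cell mice (median log2 fold change 2.99; summed levels 14978 to 25601 CPM, against 8720 to 11844 CPM in no T-cell mice). Of 16 border macrophage markers such as Mrc1 and Lyve1, 13 were lower (median -1.42; summed levels 3540 to 10022 CPM, against 11608 to 16736 CPM). Of 5 fibroblast markers 2 were lower, with summed levels of 234 to 358 CPM, against 398 to 1351 CPM. Dendritic cell markers were higher in 3 of 6 (77.3 to 233 CPM summed, against 86.2 to 146 CPM in no T-cell mice), and microglia markers were lower in 3 of 5 (306 to 689 CPM, against 742 to 922 CPM). Of the 6 macrophage genes, 2 were higher and 1 was lower (median -0.13). Single tested markers of other lists also passed, with Il7r (T cells) and Mmp8 (neutrophils) higher and Ighm (B cells) lower. The part of all these lists in the Ms4a differences was not tested.

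The size of these differences depended on the library set. In set A alone (3 total T-cell and 4 no T-cell libraries) Ms4a4c was higher by 2.26 (q = 0.002), Ms4a6c by 1.03 (q = 0.003), Ms4a6d by 1.11 (q = 0.011) and Ms4a8a by 2.71 (q = 0.035), and Ms4a4b was not called (1.61, q = 0.11). In set B alone (2 libraries in each group) no member was called. There the log2 fold change was 1.03 for Ms4a4c (q = 0.13), 0.56 for Ms4a6c (q = 0.061), 0.34 for Ms4a6d (q = 0.29), 1.52 for Ms4a8a (q = 0.19) and 0.99 for Ms4a4b (q = 0.54), and 94 genes were called in all. With total T-cell libraries F1 and M1 left out together, a choice made after seeing the data, Ms4a4c (1.05, q = 0.019), Ms4a6c (0.63, q = 0.0014) and Ms4a8a (1.88, q = 0.037) were still called.

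**Figure D3:**
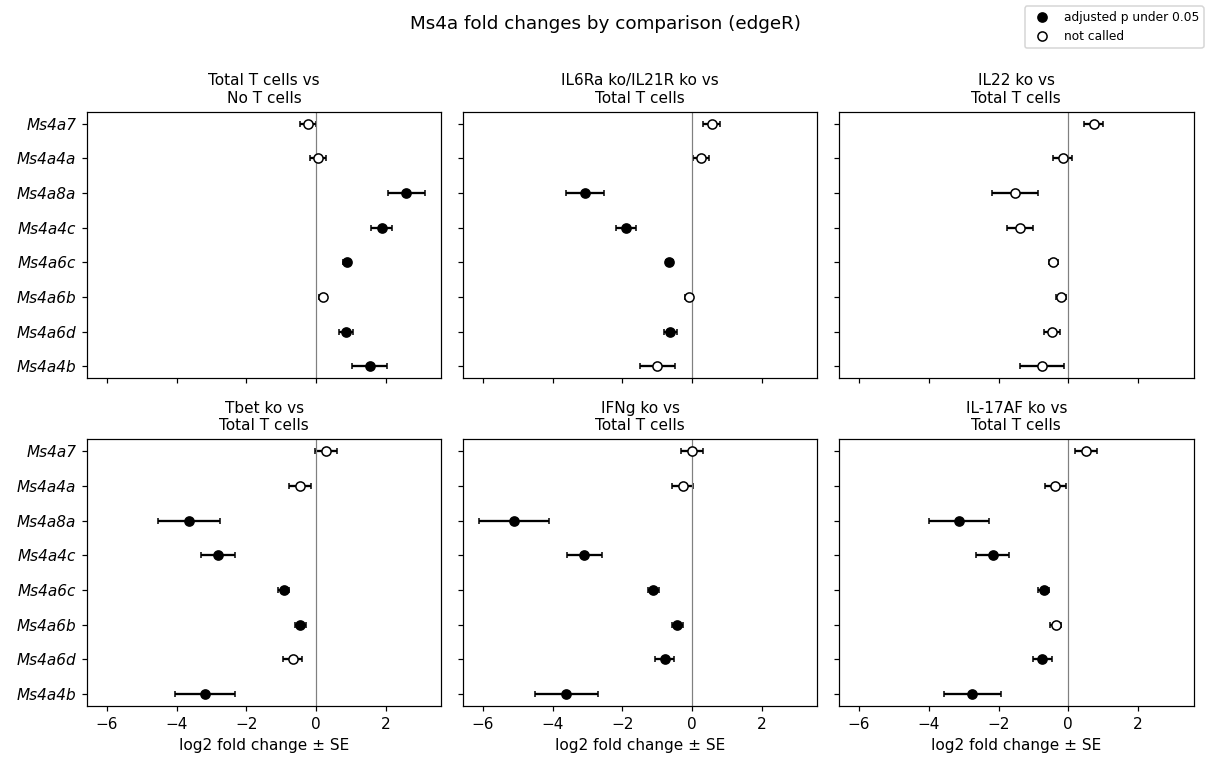
Log2 fold change ± SE (x axis) of the 8 members (rows) in 6 comparisons; filled points passed the test and open points did not. Ms4a4c was 1.88 in total T cells against no T cells and between -3.09 and -1.39 in the 5 knockout groups against total T cells, while Ms4a7 and Ms4a4a were open throughout.

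The knockout groups were each set against total T cells to ask how Ms4a transcripts differed when the donor T cells carried that deletion. All 5 comparisons share the same 5 total T-cell libraries. IL6Ra ko/IL21R ko T cells had the most libraries. Against total T cells, Ms4a4c, Ms4a6c, Ms4a6d and Ms4a8a were lower and no member was higher, so 4 of 8 members were lower where 15.1% of all genes were (13.1% were higher, 28.2% passed in either direction). The median log2 fold change was -0.64 over the members and 0.03 over all genes.

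Ms4a4c ran from 34.7 to 133 CPM with a median of 77.2 in the 7 IL6Ra ko/IL21R ko libraries, against 159 to 511 CPM in total T-cell libraries. The groups did not overlap (-1.89 ± 0.29, q = 4.4e-05). Ms4a6c had 214, 226 and 267 CPM (lowest, median, highest) with IL6Ra ko/IL21R ko T cells, against 290.2 to 458 CPM with total T cells. Every IL6Ra ko/IL21R ko library lay below every total T-cell library (-0.65 ± 0.11, q = 9.3e-05), while BE692007 was at 0.01 ± 0.14 (q = 0.95). Ms4a8a had 0.98, 3.79 and 5.39 CPM (lowest, median, highest) with IL6Ra ko/IL21R ko T cells, against 12.1 to 94.3 CPM with total T cells, again without overlap (-3.06 ± 0.55, q = 0.00021; -2.26, q = 0.0014 without total T-cell library F1).

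Ms4a6d had 200.2, 264 and 518 CPM (lowest, median, highest) with IL6Ra ko/IL21R ko T cells, against 314 to 617 CPM with total T cells. The groups overlapped through library M4 alone, the only one above 275 CPM, and the log2 fold change was -0.62 ± 0.19 (q = 0.017). M4 belongs to set C and also had the highest Ms4a4a of all 27 libraries (302 CPM), the lowest Ms4a4c (34.7 CPM) and Ms4a7 (222 CPM) of its group, and 3115 CPM of summed fibroblast markers, against 344 to 1073 CPM in the other 6. Ms4a7 had 222, 429.9 and 507 CPM (lowest, median, highest) with IL6Ra ko/IL21R ko T cells, against 112 to 442 CPM with total T cells. It was not called with M4 (0.56 ± 0.24, q = 0.083) and was called higher without it (0.63 ± 0.22, q = 0.037) and by DESeq2 with it (0.56 ± 0.23, q = 0.044). Ms4a4a (0.26 ± 0.23, q = 0.45), Ms4a6b (-0.10 ± 0.11, q = 0.55) and Ms4a4b (-1.002 ± 0.504, q = 0.14) did not pass.

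Ms4a6d was not called without total T-cell library F1 (-0.42, q = 0.078) or without IL6Ra ko/IL21R ko library F1 (-0.54, q = 0.05006). In set B alone (6 against 2 libraries) Ms4a6d (-0.55, q = 0.022) and Ms4a8a (-2.06, q = 0.013) were called, and Ms4a4c (-0.86, q = 0.069) and Ms4a6c (-0.39, q = 0.056) were not. All 14 monocyte-derived markers were lower with IL6Ra ko/IL21R ko T cells (8928 to 13404 CPM summed, against 14978 to 25601 CPM with total T cells), 14 of 16 border macrophage markers were higher (12863 to 22203 CPM, against 3540 to 10022 CPM), and all 5 fibroblast markers were higher. Microglia markers were higher in 4 of 5 (554 to 1066 CPM summed, against 306 to 689 CPM with total T cells) and B-cell markers in 2 of 2 tested, Ighm and Cd79b (246 to 616 CPM, against 123 to 406 CPM). All 3 tested neutrophil markers were lower (0 to 2.31 CPM summed, against 17.8 to 225 CPM with total T cells). Of 6 dendritic cell markers 3 were lower and 1, Zbtb46, was higher (82.8 to 131 CPM, against 77.3 to 233 CPM). Of the 6 macrophage genes, 3 were higher and 1 was lower. Of single markers, Cd4 was higher, and Il7r and the mast cell gene Kit were lower. The part of these lists was not tested.

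With Tbet ko T cells, which lack the transcription factor of type 1 helper cells, 5 of 8 members were lower than with total T cells and none was higher (15.1% of all genes were lower, 14.9% higher, 30% passed in either direction). The median log2 fold change was -0.80 over the members, against -0.02 over all genes. Ms4a4c was at 38.5 and 47.2 CPM in Tbet ko libraries F1 and F2, below all total T-cell libraries (-2.80 ± 0.49, q = 0.00026). Ms4a6c was at 185 and 187 CPM (-0.92 ± 0.16, q = 0.00024), while BE692007 was lower by a log2 fold change of -0.66 ± 0.20 (q = 0.015). Ms4a8a was at 2.95 and 2.47 CPM in Tbet ko libraries F1 and F2 (-3.64 ± 0.89, q = 0.0038), with -2.77 without total T-cell library F1 and no call without either Tbet ko library (q = 0.055 and 0.057). None of these 3 members overlapped with total T cells. How many of all genes did not overlap was not counted.

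Ms4a4b was at 1.18 and 0.0988 CPM in Tbet ko libraries F1 and F2, which is 12 counts and 1 count, and was lower than with total T cells (-3.19 ± 0.86, q = 0.0072). This value was -5.76 without Tbet ko library F1, -2.31 without F2 (q = 0.11, not called) and -2.52 without total T-cell library F1. Ms4a6b was at 224 and 273 CPM, just below the total T-cell range of 301 to 391 CPM (-0.45 ± 0.15, q = 0.03). Ms4a6d was at 225 and 273 CPM (-0.67 ± 0.27, q = 0.063), Ms4a7 at 362 and 370 CPM (0.28 ± 0.32, q = 0.54) and Ms4a4a at 95.7 and 116 CPM (-0.46 ± 0.31, q = 0.29). Without Tbet ko library F1 3 members were called and without F2 2, and Ms4a6b was not called without either of them (q = 0.33 and 0.05002) or without total T-cell library F1 or M1 (q = 0.065 and 0.059). The labels do not say whether the 2 Tbet ko libraries came from separate animals. The names of their 2 columns differ by a final x alone, so both may come from 1 animal.

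With IFNg ko T cells, which lack a cytokine that activates macrophages, 6 of 8 members were lower than with total T cells and none was higher (19.5% of all genes were lower, 17.4% higher, 36.8% passed in either direction). The median was -0.95 over the members, against -0.05 over all genes. Ms4a4c was at 44.3 and 26.4 CPM in IFNg ko libraries F1 and F2, and F2 was the lowest of all 27 libraries (-3.09 ± 0.50, q = 7.8e-05). Ms4a6c was at 145 and 178 CPM (-1.12 ± 0.16, q = 2.9e-05), with BE692007 at -0.62 ± 0.20 (q = 0.018). Ms4a8a had no count in IFNg ko library F1 and 1.78 CPM in F2, against 12.1 to 94.3 CPM with total T cells. Its fitted log2 fold change of -5.10 ± 1.00 (q = 0.0005) rests on 1 library with counts, and was -4.25 without total T-cell library F1 or without IFNg ko library F1.

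Ms4a4b was at 0.412 and 0.533 CPM in IFNg ko libraries F1 and F2, below all total T-cell libraries (-3.60 ± 0.89, q = 0.0032). It was -2.93 without total T-cell library F1 and was not called without IFNg ko library F1 (-3.45, q = 0.054). Ms4a6d was at 235 and 223 CPM (-0.79 ± 0.27, q = 0.027) and Ms4a6b at 265 and 239 CPM (-0.43 ± 0.15, q = 0.032), both below the total T-cell range. Ms4a7 was at 215 and 385 CPM, so that the 2 libraries differed by more than their mean differed from total T cells (-0.01 ± 0.32, q = 0.99). Ms4a4a was at 147 and 94.1 CPM (-0.27 ± 0.31, q = 0.52). Without IFNg ko library F1, 3 members were called. Ms4a6d was not called without total T-cell library F1 (q = 0.074) or without either IFNg ko library (q = 0.13 and 0.12), and Ms4a6b not without total T-cell library F1 (q = 0.067) or M1 (q = 0.068), or without either IFNg ko library (q = 0.093 and 0.18). DESeq2 did not call Ms4a6b either (q = 0.054).

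With IL-17AF ko T cells, 5 of 8 members were lower than with total T cells and none was higher (12.5% of all genes were lower, 12.6% higher, 25.1% passed in either direction; median -0.72 over the members, against -0.01 over all genes). Ms4a4c was at 75.3 and 58 CPM in IL-17AF ko libraries F1 and F2 (-2.17 ± 0.47, q = 0.0022), Ms4a6c at 224 and 208 CPM (-0.70 ± 0.16, q = 0.0028) and Ms4a8a at 3.46 and 4.29 CPM (-3.14 ± 0.86, q = 0.01). All of these lay below every total T-cell library. So did Ms4a6d at 246 and 229 CPM (-0.74 ± 0.27, q = 0.049) and Ms4a4b at 1.3 and 0.39 CPM (-2.75 ± 0.82, q = 0.017). How many of all genes lay apart in this way was not counted. Ms4a7 was at 399 and 467 CPM (0.52 ± 0.31, q = 0.24), Ms4a4a at 145 and 79.8 CPM (-0.37 ± 0.31, q = 0.42) and Ms4a6b at 301 and 227 CPM (-0.36 ± 0.15, q = 0.088). Calls fell to 2 without IL-17AF ko library F1, to 1 (Ms4a4c) without F2 and to 3 without total T-cell library F1, where Ms4a8a was at -2.26 and Ms4a4b, no longer called, at -2.08 (q = 0.052). Ms4a4b was at -3.89 without IL-17AF ko library F1 and at -2.18 without F2, not called in either. Ms4a6d was not called either without total T-cell library F3 (q = 0.051) or M1 (q = 0.069).

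For the Tbet ko, IFNg ko and IL-17AF ko groups, which are all in set C, a model with the library set as a term rests on the single IL6Ra ko/IL21R ko library M4 for its set C level. In that model no member was called with Tbet ko T cells, none with IL-17AF ko T cells, and 2 with IFNg ko T cells, Ms4a6c (-1.21, q = 0.024) and Ms4a6d (-1.81, q = 0.024), while over all genes 6, 3 and 48 passed. Monocyte-derived markers were lower in 13, 12 and 10 of 14 with Tbet ko, IFNg ko and IL-17AF ko T cells against total T cells, and border macrophage markers were higher in 13, 14 and 9 of 16. Of the 6 macrophage genes, 1, 2 and 2 were higher and 2, 2 and 0 were lower in the same order. All 5 fibroblast markers were higher in each. Their summed levels were 2776 to 3102 CPM in Tbet ko, 2915 to 3308 CPM in IFNg ko and 2047 to 2809 CPM in IL-17AF ko libraries, against 234 to 358 CPM in total T-cell libraries. With Tbet ko, IFNg ko and IL-17AF ko T cells in that order, dendritic cell markers were lower in 3, 4 and 2 of 6, neutrophil markers were lower in 1, 2 and 1 of 3 tested, and microglia markers were higher in 2, 2 and 1 of 5. Of the 2 tested T-cell markers, Cd4 was higher in each of these 3 groups and Il7r was not called. Mean Cd4 was 188, 167 and 216 CPM in that order, against 80.9 CPM with total T cells and 120 CPM with no T cells. Mean Il7r was 1.18, 1.499 and 1.25 CPM, against 6.13 CPM with total T cells. T-cell receptor and CD3 genes summed to 3 to 6, 0 and 4 to 12 counts, against 2 to 138 counts with total T cells. The part of these lists in the Ms4a values was not tested.

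With IL22 ko T cells, no member was called against total T cells, where 0.0869% of all genes were (11 genes; 0.0632% higher, 0.0237% lower). At an unadjusted p under 0.05 in edgeR there were 4 members, 3 lower and 1 higher. Of all 12661 genes, 2192 were under it (1158 lower, 1034 higher). DESeq2 called 2 members, both lower. Ms4a4c was at 108, 102 and 119 CPM in IL22 ko libraries F1, F2 and M1, against 159 to 511 CPM with total T cells. All 3 lay below all total T-cell libraries, with a log2 fold change of -1.39 ± 0.37 (q = 0.063). Ms4a7 was at 485, 456 and 479.7 CPM in IL22 ko libraries F1, F2 and M1, against 112 to 442 CPM with total T cells. All 3 lay above all total T-cell libraries (0.73 ± 0.28, q = 0.16). Ms4a6c at 246 to 299.8 CPM (-0.42 ± 0.13, q = 0.088), Ms4a8a at 8.89 to 12.6 CPM (-1.53 ± 0.67, q = 0.23) and Ms4a6d at 261 to 377 CPM (-0.46 ± 0.23, q = 0.32) overlapped with total T cells. Ms4a4b (-0.76 ± 0.62, q = 0.59), Ms4a6b (-0.20 ± 0.13, q = 0.46) and Ms4a4a (-0.16 ± 0.27, q = 0.83) also missed the threshold. Of the marker lists, 1 gene passed, the microglia marker Tmem119 (higher). Without total T-cell library F3, or without F4, 2 members were called, both lower. The counts of all genes called in these fits are not given here.

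Each knockout group was also set against no T cells, to ask whether Ms4a transcripts with T cells of that kind differed from those with none. No member was called in any of the 5 comparisons. Over all genes 7.21% were called with Tbet ko (4.19% higher, 3.03% lower), 13.7% with IFNg ko (6.82% higher, 6.84% lower), 1.15% with IL6Ra ko/IL21R ko (0.118% higher, 1.03% lower), 5.97% with IL-17AF ko (3.69% higher, 2.28% lower) and 0.0079% with IL22 ko T cells. At an unadjusted p under 0.05 in edgeR the counts of members were 1, 3, 1, 0 and 1 in that order. Of all 12661 genes, 2926, 3717, 1364, 2839 and 1186 were under it. DESeq2 called 0, 2, 0, 0 and 0 members. The lowest q were with IFNg ko T cells, for Ms4a8a (-2.51 ± 0.91, q = 0.067), Ms4a4c (-1.21 ± 0.44, q = 0.068) and Ms4a4b (-2.07 ± 0.84, q = 0.099), and 1 member was called without no T-cell library F1 or without IFNg ko library F2. Both IFNg ko libraries had less Ms4a4c (44.3 and 26.4 CPM) than any no T-cell library (63.9 to 96.3 CPM). So did both Tbet ko libraries (38.5 and 47.2 CPM, log2 fold change -0.92 ± 0.43, q = 0.2). All 5 fibroblast markers were also higher in each of these 2 groups than without T cells. They summed to 2915 to 3308 CPM with IFNg ko and 2776 to 3102 CPM with Tbet ko, against 398 to 1351 CPM. In each group 2 of 14 monocyte-derived markers were lower. Of 16 border macrophage markers, 2 were higher with IFNg ko and 1 with Tbet ko. The part of these lists was not tested. With IL6Ra ko/IL21R ko T cells Ms4a4c had a log2 fold change of -0.003 ± 0.27 (q = 0.998), with a median of 77.2 CPM against 79.6 CPM without T cells. With IL22 ko T cells the smallest unadjusted p was that of Ms4a6c (0.45 ± 0.12, q = 0.15), whose 3 libraries at 246 to 299.8 CPM all lay above the no T-cell range of 182 to 210.1 CPM.

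IL22 ko was compared with IL6Ra ko/IL21R ko, since both lie mainly in set B, and IL-17AF ko with IFNg ko, since both lie in set C. No member was called in either comparison (0.0079% and 0.0158% of all genes were), and DESeq2 called none. At an unadjusted p under 0.05 in edgeR there was 1 member in each, where 1088 and 776 of all 12661 genes were. Ms4a8a was at 8.89 to 12.6 CPM with IL22 ko and 0.98 to 5.39 CPM with IL6Ra ko/IL21R ko T cells, without overlap (1.53 ± 0.57, q = 0.36), and was called in set B alone (1.58, q = 0.047). Ms4a6c was at 208 and 224 CPM with IL-17AF ko and 145 and 178 CPM with IFNg ko T cells (0.42 ± 0.18, q = 0.77).

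Ordered by mean level across the 7 groups, Ms4a4c was 35.3 ± 12.7 CPM with IFNg ko, 42.9 ± 6.17 with Tbet ko, 66.7 ± 12.3 with IL-17AF ko, 76.6 ± 33.5 with IL6Ra ko/IL21R ko, 78.2 ± 11.4 with no, 109 ± 8.45 with IL22 ko and 289 ± 157 with total T cells (SD; n = 2, 2, 2, 7, 6, 3 and 5). Neighbours in this order overlapped in their libraries, except Tbet ko with IL-17AF ko, no with IL22 ko, and IL22 ko with total T cells. For Ms4a8a the total T-cell group was also highest, at 33.3 ± 34.8 CPM, and the IFNg ko group lowest, at 0.888 ± 1.26 CPM. Among neighbours in its order, the IFNg ko and Tbet ko groups did not overlap and all others did. For Ms4a6c the order ran from 162 ± 23.8 CPM with IFNg ko to 358 ± 76.6 CPM with total T cells, and only IFNg ko and Tbet ko, its lowest 2 groups, did not overlap.

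Ms4a7 was reversed at the total T-cell end only. Its mean was lowest with total T cells (295 ± 130 CPM). Next came IFNg ko T cells (300 CPM), the lowest group for Ms4a4c, Ms4a8a and Ms4a6c. The mean of Ms4a7 was highest with IL22 ko T cells (473 ± 15.8 CPM), but all neighbours in its order overlapped. The same held for Ms4a4a, from 106 ± 14.1 CPM with Tbet ko to 185 ± 58.4 CPM with IL6Ra ko/IL21R ko T cells, for Ms4a6b, from 249 ± 34.9 CPM with Tbet ko to 342 ± 37.3 CPM with total T cells, for Ms4a6d, from 229 ± 8.42 CPM with IFNg ko to 411 ± 128 CPM with total T cells, and for Ms4a4b, from 0.472 ± 0.085 CPM with IFNg ko to 5.72 ± 4.9 CPM with total T cells.

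Levels of different members can be compared per length only. Per kilobase of the longest coding transcript, Ms4a7 was at 187 ± 82.3 CPM with total T cells and 215 ± 19 CPM with no T cells (SD, n = 5 and 6), and Ms4a4c was at 168 ± 90.9 CPM with total T cells and 45.4 ± 6.63 CPM with no T cells. Per kilobase of all annotated exons, Ms4a7 was at 66.2 ± 29.1 CPM with total T cells and 76.2 ± 6.73 CPM with no T cells, and Ms4a4c was at 165 ± 89.5 CPM with total T cells and 44.6 ± 6.53 CPM with no T cells. The log2 ratio of Ms4a4c to Ms4a7 per coding transcript length was 2.05, -1.25, -1.13, -1.28 and 0.74 in total T-cell libraries F1, F2, F3, F4 and M1, -4.00 to -1.79 in the 16 knockout libraries, and -2.44 to -2.003 in no T-cell libraries. All 5 total T-cell libraries lay above every other library. Whether Ms4a4c exceeded Ms4a7 depended on the length used. The ratio was above 0 in 2 total T-cell libraries, F1 and M1, per coding transcript length. Over all annotated exons it was above 0 in all 5, at 0.20 to 3.53, against -2.52 to -0.31 in knockout libraries and -0.97 to -0.53 in no T-cell libraries. Per kilobase of coding transcript Ms4a6d was highest with total T cells (290 ± 90.1 CPM, SD), and Ms4a4b was lowest in every group, at most 1.2 ± 1.03 CPM.

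**Figure D4:**
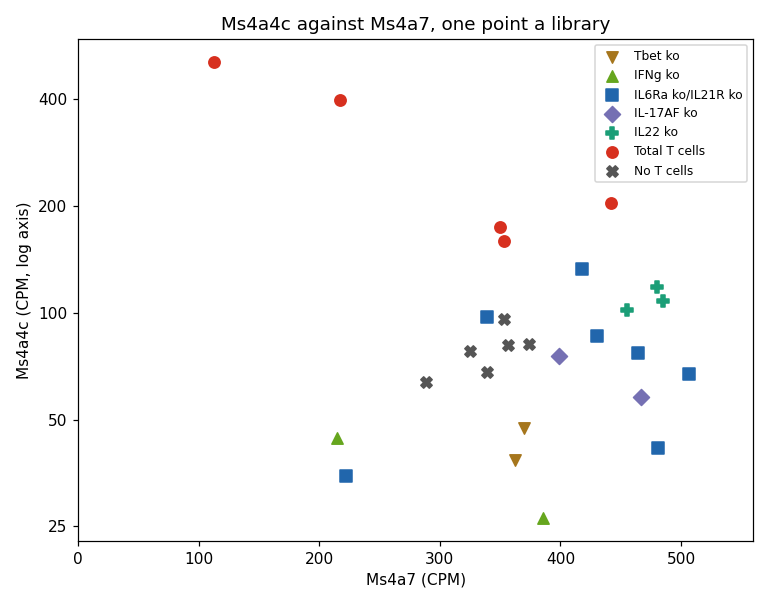
Ms4a4c (y axis, CPM, log axis) against Ms4a7 (x axis, CPM) in each of the 27 libraries, by group. All 5 total T-cell libraries lie at 159 CPM Ms4a4c or above and every other library at 133 CPM or below, while Ms4a7 overlaps between total T cells and no T cells.

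As a description over the 27 libraries, which share sets and groups, Ms4a4c had a Pearson r of 0.89 with the mean log2 level of the 14 monocyte-derived markers and of -0.89 with that of the 16 border macrophage markers. Ms4a8a had 0.79 and -0.74, Ms4a6c 0.76 and -0.84, Ms4a4b 0.62 and -0.62, Ms4a6d 0.54 and -0.62, and Ms4a6b 0.50 and -0.45. Ms4a7 had -0.44 and 0.50 (-0.57 and 0.32 in set B alone). Ms4a4a had -0.02 and 0.03 (-0.38 and 0.40 in set B alone). Other lists also had high r, with 0.79 for Ms4a4c with the 6 dendritic cell markers and 0.59 for Ms4a7 with the 5 microglia markers. No member belongs to any of these lists. Of the 12661 genes, the most like Ms4a4c over the 27 libraries by Pearson r of log2 CPM were Nmi (0.94), an interferon-induced gene, Samhd1 (0.93), a dNTP hydrolase, Skap2 (0.93), an adaptor in integrin signalling, Txn1 (0.93), thioredoxin, and Gpr141 (0.93), an orphan receptor. The 5 genes most like Ms4a7 were Daglb (0.91), a diacylglycerol lipase, Itm2b (0.89), Pigz (0.89), Cyp27a1 (0.88), a sterol hydroxylase, and Tmem176b (0.88), a distant relative of the family. Those most like Ms4a8a were Igsf8 (0.91), Sept9 (0.91), Sirpb1c (0.89), Myo1g (0.88) and Adora2b (0.87), the last an adenosine receptor.

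Those most like Ms4a6c were Itgb2 (0.93), the beta-2 integrin chain, Ppt1 (0.93), Wars (0.92), an interferon-induced tRNA synthetase, Bak1 (0.92) and 1600014C10Rik (0.91). Ms4a6d was most like Clec4d (0.88), a C-type lectin, Arpc3 (0.82) and Ms4a6c (0.81), the only member that appears in the list of another. The best matches of the other members were Shisa5 for Ms4a4b (0.86), Trabd for Ms4a6b (0.74) and Ccl9 for Ms4a4a (0.69). In the 13 libraries of set B alone r was 0.83 for Nmi with Ms4a4c, 0.92 for Itgb2 with Ms4a6c and 0.90 for Clec4d with Ms4a6d, but 0.53 for Daglb with Ms4a7 and 0.20 for Ccl9 with Ms4a4a.

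Of 16 other genes of the family, 13 were found in the table and 4 had enough counts to test: Ms4a3, Ms4a14, Tmem176a and Tmem176b. The other 9, among them Ms4a1 (up to 19 counts in a library) and Ms4a2 (up to 28 counts), had at most 36 counts in a library. Ms4a14, which lies next to Ms4a7, was higher with IL-17AF ko than with total T cells, at 20.9 ± 10.8 and 9.39 ± 4.68 CPM (SD, n = 2 and 5; 1.13 ± 0.40, q = 0.04), and was not called in the other comparisons with total T cells. Tmem176a and Tmem176b were called in none of the 13 comparisons. Ms4a3, a gene of granulocyte and monocyte progenitors, was at 1.61 to 5.49 CPM in total T-cell libraries F1, F2 and M1 and at 0.209 and 0.423 CPM in F3 and F4, at 0 to 29 CPM in no T-cell libraries, and at 0 counts in all 7 IL6Ra ko/IL21R ko, all 3 IL22 ko and both IFNg ko libraries. It was called lower with IL6Ra ko/IL21R ko T cells, against total T cells (q = 0.0038) and against no T cells (q = 0.017), where no fold is given because every IL6Ra ko/IL21R ko library was at 0. The no T-cell library with 29 CPM of Ms4a3, M1, also had the highest sum of neutrophil markers, 825 CPM, against 0 to 195 CPM in the other no T-cell libraries.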

How the data were processed

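The data were 1 deposited table of read counts, in whole numbers, for 27 libraries. Although named normalized, it has library totals that differ, and it was analysed as raw counts. The submitters' processing notes, per the labels, list STAR 2.4.0j, featureCounts, DESeq2 1.20.0 and GRCm38. Mice were perfused and dural macrophages sorted after digestion, and unstranded 75-nucleotide single-end libraries were made, per the labels' protocols. Neither the sort markers nor the handling of multiply matching reads is given in the sources used. Rows lacking a symbol held 0.106 to 0.143% of counts. Columns were matched to group and sex by name and carry no replicate number, so F and M numbers follow column order. No label ties a library to an animal, and the p-values therefore reflect spread between libraries, which may be technical. Some libraries may be pools, among them IL6Ra ko/IL21R ko library M4, whose column name carries a longer run of digits. Libraries of a group differed by more than sampling noise (chi-square per degree of freedom 8.97 to 138 over 52 pairs).

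Tests used edgeR 4.0.16 in R 4.3.3 on the 12661 genes whose normalized counts averaged at least 10. TMM scaling and 1 quasi-likelihood model of all 27 libraries with group and sex were used, with Benjamini-Hochberg adjustment within each comparison. CPM use library totals multiplied by TMM factors. Overlap of groups was looked at in the 8 members only, and no share over all genes was computed. Symbols, coordinates and lengths come from GENCODE M21. Counts were also simulated for total T cells against no T cells over 12661 genes. There 100% of genes changed by a log2 fold of 2 and 86% of those changed by 1 were recovered, with 3.63% of calls false. The simulated libraries were independent, had the same extra spread for every gene and held no library sets. These rates therefore need not hold for the real libraries. Named genes were the 8 members, the other family genes, and for each member the 5 genes of highest Pearson r of log2 CPM (prior count 2). Alternatives were DESeq2 1.42.0, its size factors in edgeR, no filter, females alone, no sex term, a library set term, each set alone, and leaving out each library. Leaving out total T-cell libraries F1 and M1 together, and using sets A and B only, were added after seeing the data. The result of 1 border macrophage marker is not reported here. Members, lists and sets were chosen with earlier results of these data known.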

Additional observations from a re-analysis of the deposited data

Results flagged for a closer look

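In groups of 4 to 10 libraries, 4 of 24 sets of member values had a library set apart from the others by Dixon's criterion, where chance gives about 1 in 20. Ms4a4b was at 14.3 CPM and Ms4a8a at 94.3 CPM in total T-cell library F1, where T-cell receptor and CD3 genes also had the most counts. Summed monocyte-derived (25601 CPM), neutrophil (225 CPM) and NK cell markers (6.86 CPM) were highest of the total T-cell group in F1 as well. Border macrophage markers (3540 CPM), macrophage genes (5060 CPM) and microglia markers (306 CPM) were lowest there. The part of these lists in the Ms4a4b and Ms4a8a values of F1 was not tested. Ms4a6d was at 518 CPM in IL6Ra ko/IL21R ko library M4, the only library of that group in set C. Ms4a6b was at 371 CPM in no T-cell library M1, the library with the highest neutrophil markers of its group.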

How the results depend on the processing

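The 25 member fold changes that were called kept their direction in all 413 values computed under other settings. Of these, 343 also stayed past the threshold and 70 did not. Most settings refit largely the same libraries and only called fold changes were followed, so a kept direction says little. With a term for library set 11 stayed past the threshold and 14 did not, and in set B alone 2 did and 7 did not. Counts of members called moved as follows. Without the filter on low counts, 3 members were called with IL22 ko against total T cells, 1 with Tbet ko and 2 with IFNg ko against no T cells, 1 with IL22 ko against IL6Ra ko/IL21R ko and 1 with IL-17AF ko against IFNg ko. Over all genes, those comparisons then had 1219, 1510, 2011, 558 and 218 calls. DESeq2 called 2 members with IL22 ko against total T cells and 2 with IFNg ko against no T cells (695 and 2075 genes). A term for library set gave counts of 0 with Tbet ko, 2 with IFNg ko and 0 with IL-17AF ko against total T cells (6, 48 and 3 genes). In set B alone it was 0 with total T cells against no T cells, 2 with IL6Ra ko/IL21R ko against total T cells and 1 with IL22 ko against IL6Ra ko/IL21R ko (94, 834 and 168 genes). Without total T-cell libraries F1 and M1 together, chosen after seeing the data, it was 3 with total T cells against no T cells and 3 with IL-17AF ko against total T cells (806 and 2045 genes). Leaving out each library in turn gave 4 to 5 members with total T cells against no T cells, 2 to 6 with Tbet ko, 3 to 6 with IFNg ko, 3 to 5 with IL6Ra ko/IL21R ko, 1 to 5 with IL-17AF ko and 0 to 2 with IL22 ko against total T cells, and 0 to 1 with IFNg ko against no T cells. Where a group was left with 1 library, that library is assumed to vary like the other groups. Counts over all genes are not given for the fits that leave out a single library. Member counts from those fits therefore cannot be set against a share of all genes. Fewer libraries enter the set and leave-out fits; otherwise the cause was not tested. No paired analysis was possible because the table columns do not show the replicate numbers that titles give. Ms4a4b and Ms4a8a rest on few counts outside the total T-cell group, which limits their precision. Intervals and errors cover libraries of this series, and 3 of the knockout groups have 2 libraries each.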
